A study of Homo sapiens with 24 samples.

Results

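The genes described here encode volume-regulated anion channel subunits and channels that respond to osmotic or mechanical force: LRRC8A, LRRC8B, LRRC8C, LRRC8D, LRRC8E, AQP1, TRPV4, PIEZO1 and PIEZO2. They were chosen by name and matched by symbol to the Ensembl gene identifiers of the count files, and all 9 of 9 were found among 62703 listed genes. Of the 9, 8 passed the filter on low counts and were tested with 16600 genes in all. LRRC8C was listed at 0 in all 24 libraries and was not tested. RNA-seq was performed on T/C-28a2 cells, an established human chondrocyte line, in 6 groups of 4 libraries. WT cells were kept without transfection in isotonic medium (WT Ctr) or in medium with 100 mM sorbitol (WT Sor) for 7 days. WNK2 trans Ctr and WNK2 trans Sor were WT cells that received a WNK2 plasmid by lipofection 48 h before the same media, and no empty-vector group was analysed here. WNK2- Ctr and WNK2- Sor were cells in which CRISPR/Cas9 removed exon 2 of WNK2, the exon with the start codon, grown as clonal lines from single cells. Clone and genotype therefore cannot be told apart in any WNK2- comparison. The labels give no clone for each library, so the replicates may be cultures of the same clone. WNK2 is a chloride-sensitive kinase that regulates cation-chloride cotransport.

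Library totals ran from 14153002 to 25664619 counts, and both WNK2- groups held larger totals (18578564 to 25664619) than most other libraries. The labels were checked against WNK2 itself. Its level, in CPM (read counts scaled to the TMM-adjusted library total), was 78.5 to 186 in the libraries labelled WT Ctr and 9.98 to 16.1 CPM in those labelled WNK2 trans Ctr, which goes against those labels. It was 15.4 to 17.4 CPM in WT Sor and 122 to 207 CPM in WNK2 trans Sor. In WNK2- it was 16.9 to 22.8 CPM over 8 libraries, where reads from the remaining exons still count, so that level does not check the deletion. Group names below are the labels. In the counts of members called, WT Sor, WNK2 trans Sor and WNK2- Ctr are each set against both the libraries labelled WT Ctr and those labelled WNK2 trans Ctr. The WNK2 trans Sor pairing with WT Ctr was chosen after seeing the data. For markers, neighbouring genes and other channels, most values are given only against the control named with them. Of 19 chondrocyte markers, 2 (SOX9 and CHAD) were listed at 0 in every library, and the summed level of the list was 107 to 166 CPM in the 16 libraries without the deletion and 34.8 to 39.5 CPM in the 8 WNK2- libraries. HAPLN1, the link protein of cartilage matrix, was the larger part of that sum in WT Ctr (mean 81 CPM), WT Sor (66.5 CPM) and WNK2 trans Sor (117 CPM). It was at 46.4 CPM in WNK2 trans Ctr, 13.8 CPM in WNK2- Ctr and 18 CPM in WNK2- Sor. The lower sum in WNK2- was therefore in large part this gene. In WNK2 trans Sor against WNK2 trans Ctr HAPLN1 rose (log2 1.34, adjusted p = 2.28e-09). The collagen genes COL2A1 (log2 -2.88, adjusted p = 3.65e-10) and COL9A3 (-3.41, adjusted p = 1.38e-08) fell in the same comparison, in which 4 of 13 tested markers were higher and 8 lower. The summed level of 8 fibroblast-type markers was 968 to 1880 CPM in WNK2 trans Sor and WNK2- Sor and 2680 to 6730 CPM in the other 4 groups, with 1 of the 8 listed at 0. Blood (2.05 to 21.9 CPM, 4 markers, 1 at 0), endothelial (22.9 to 106 CPM, 3 markers) and epithelial (608 to 1240 CPM, 4 markers) sums also varied, the endothelial one being highest in WNK2 trans Sor. Each sum rested on few genes. By mean level, CD14 (7.41 CPM) led the blood sum, with PTPRC at 0.149 CPM. KRT8 (561 CPM) and KRT18 (317 CPM) led the epithelial one, with EPCAM at 0.91 and CDH1 at 0.344 CPM. COL1A1 (2560 CPM) led the fibroblast-type one, with COL1A2 at 0.321 and DCN at 0.444 CPM. VWF was at 0.941 CPM. The sums are therefore no measure of cell types. The part of these marker shifts in the results below was not tested, and in bulk RNA fewer cells of a type and less RNA per cell cannot be told apart.

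Cells that swell restore their volume by releasing chloride and organic osmolytes through volume-regulated anion channels. These channels are hexamers in which LRRC8A is obligatory and is joined by LRRC8B, LRRC8C, LRRC8D or LRRC8E, whose mix sets what the pore passes. AQP1 forms a water pore. TRPV4 is a cation channel opened by osmotic and mechanical stimuli, and PIEZO1 and PIEZO2 are large mechanically gated cation channels. In cartilage, where loading expels water and raises osmolarity, TRPV4 and the PIEZO channels are studied as calcium entry routes of chondrocytes.

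Compared per kilobase of exon, the obligatory subunit LRRC8A had the highest mean level (26.8 CPM per kb over 24 libraries, SD 1.5). PIEZO1 (18.5 CPM per kb, SD 3.99), PIEZO2 (18 CPM per kb, SD 7.72) and LRRC8D (14.5 CPM per kb, SD 2.27) followed. TRPV4 was lower at 2.93 CPM per kb (SD 1.15) and LRRC8E lower again at 0.811 CPM per kb (SD 0.333). AQP1 (0.104 CPM per kb) and LRRC8B (0.0703 CPM per kb) were near the limit of detection, with 0 to 16 and 0 to 42 counts per library. PIEZO1 and PIEZO2 could not be ordered over all libraries, since their order differed between groups. LRRC8E shares 74.3% of its exon bases with an antisense gene, AQP1 shares 26.5% and PIEZO1 20.2% with other genes in GENCODE 29. How reads over shared bases were counted is not given in the sources used here, and the library kit does not mark strand, so the levels of these 3 genes are uncertain.

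**Figure D1:**
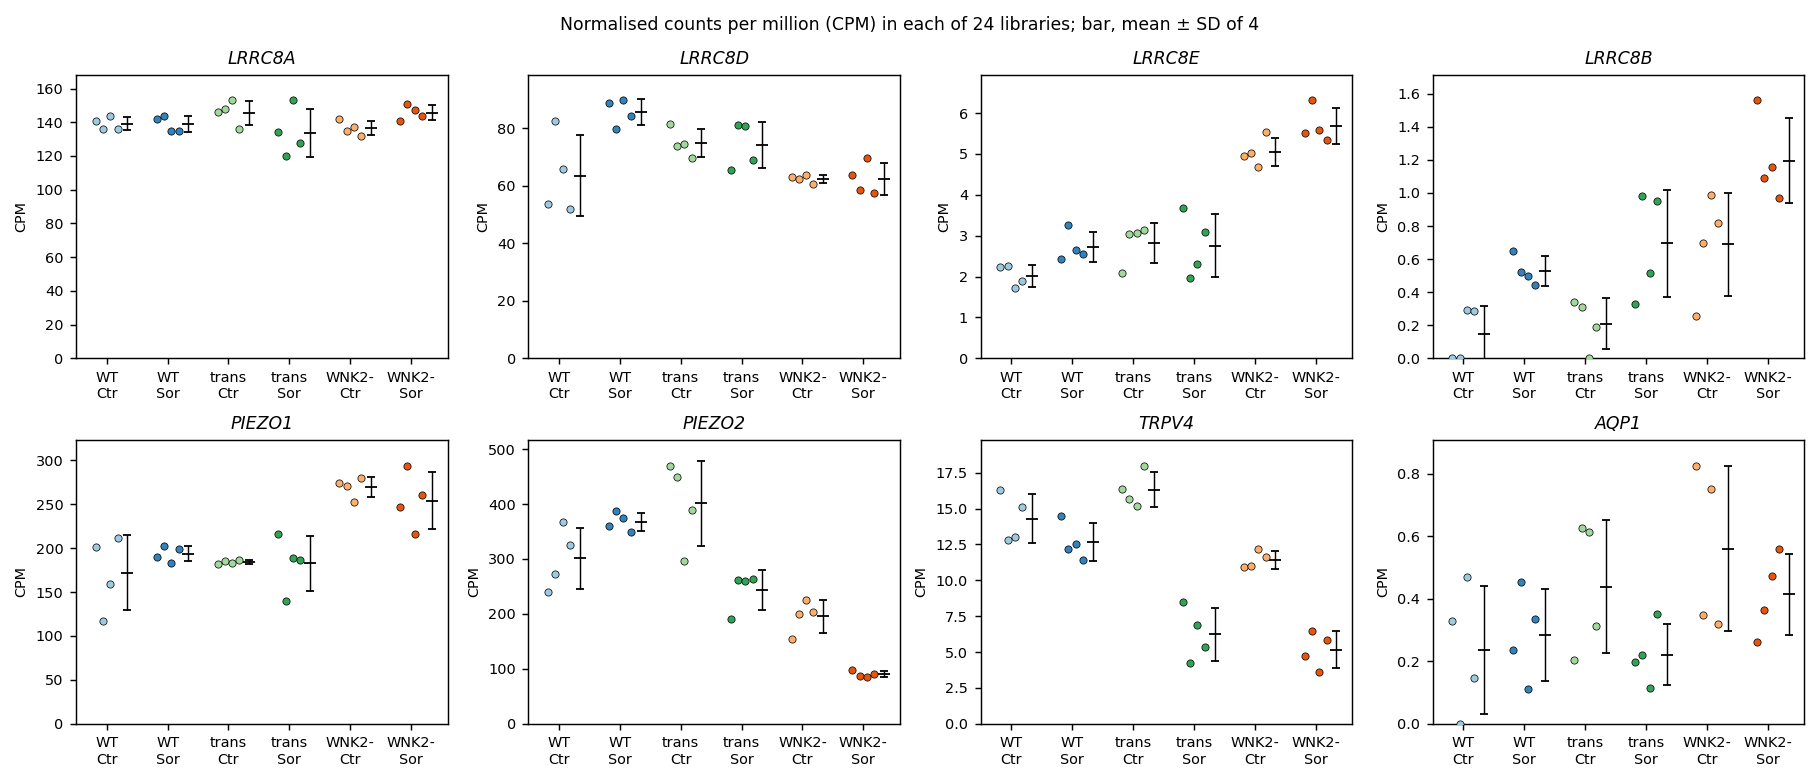
Each panel plots 1 gene; the y axis is the normalised read count (CPM) from 0, each point is 1 of 24 libraries in the 6 groups, and the bar to the right of each group is its mean ± SD of 4 (cut at 0 for LRRC8B). LRRC8A stays between 120 and 153 CPM in every library, PIEZO2 is at 85.1 to 97.4 CPM in WNK2- Sor, and the 8 WNK2- libraries have the highest LRRC8E.

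LRRC8A, the subunit without which the channel does not form (chr9:128882112-128918039, plus strand, GRCh38), was the steadiest member. Its level was 141, 136, 144 and 136 CPM in WT Ctr, 142, 144, 135 and 135 CPM in WT Sor, and 146, 148, 153 and 136 CPM in WNK2 trans Ctr. It was 134, 120, 153 and 128 CPM in WNK2 trans Sor, 142, 135, 137 and 132 CPM in WNK2- Ctr, and 141, 151, 147 and 144 CPM in WNK2- Sor. All 6 groups overlapped, and none of the 15 pairs of groups passed edgeR's test. The lowest group mean (WNK2 trans Sor) was 1.09-fold below the highest (WNK2 trans Ctr, adjusted p = 0.167), and that pair was called without WNK2 trans Sor replicate 3 (log2 -0.20, adjusted p = 0.0332). In WT Sor against the libraries labelled WT Ctr the log2 difference was -0.01, with a 95% interval of -0.15 to 0.14, and in WNK2- Sor against WT Sor it was 0.07 (-0.08 to 0.22).

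LRRC8D, the subunit associated with transport of larger organic osmolytes (chr1:89821014-89936611, plus strand), was highest in WT Sor. Its level was 53.6, 82.5, 66 and 52 CPM in WT Ctr and 88.7, 79.9, 89.7 and 84.3 CPM in WT Sor. The second WT Ctr library lay inside the WT Sor range, and the other 3 lay below it. LRRC8D rose 0.43 ± 0.11 (SE) on the log2 scale in WT Sor (edgeR quasi-likelihood test, adjusted p = 0.00702), and it was the only member of 8 called in that comparison, where 24.1% of all tested genes were called. The call was lost when only these 2 groups were fitted (log2 0.45, adjusted p = 0.051). Against the libraries labelled WNK2 trans Ctr (81.4, 74, 74.6 and 69.7 CPM), WT Sor was 0.19 higher on the log2 scale and not called (adjusted p = 0.274). WNK2- Sor held 63.9, 58.4, 69.5 and 57.5 CPM, all below WT Sor, and fell by 0.46 on the log2 scale against it (SE 0.11, adjusted p = 0.00157). In WNK2- Ctr the 4 libraries were within 60.7 and 63.8 CPM, and in WNK2 trans Sor the level was 65.5 to 81.2 CPM. Without WT Ctr replicate 2, WNK2 trans Ctr against WT Ctr was called (log2 0.39, adjusted p = 0.0114). WNK2- Ctr lay below the libraries labelled WNK2 trans Ctr without overlap and just missed the threshold (log2 -0.26, SE 0.11, adjusted p = 0.0566). That comparison was called with only these groups fitted (adjusted p = 0.0111), with libraries thinned to the smallest total (0.0483), with the replicate block (0.0491) and without WT Ctr replicate 1 (0.0498), 2 (0.016) or 4 (0.0352), WNK2 trans Ctr replicate 4 (0.0449) or WNK2 trans Sor replicate 1 (0.0426) or 2 (0.0468).

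LRRC8E (chr19:7888505-7902021, plus strand), a subunit of more restricted tissue expression, was higher in WNK2-. It was read at 2.23, 2.26, 1.71 and 1.88 CPM in WT Ctr and at 4.95, 5.02, 4.69 and 5.53 CPM in WNK2- Ctr. With sorbitol it was 2.43, 3.25, 2.65 and 2.56 CPM in WT and 5.5, 6.31, 5.58 and 5.34 CPM in WNK2-. Every WNK2- library was above every library of the other 4 groups. The rise was 1.32 ± 0.19 (SE, log2) in WNK2- Ctr against WT Ctr (adjusted p = 3.53e-06), 0.83 ± 0.18 against the libraries labelled WNK2 trans Ctr (adjusted p = 0.00047) and 1.06 ± 0.18 in WNK2- Sor against WT Sor (adjusted p = 2.67e-05). The counts behind it were small, 26 to 35 in WT Ctr and 96 to 122 in WNK2- Ctr, and the antisense gene that shares its exons was at 0 to 10 counts per library. Sorbitol did not move LRRC8E past the threshold within any background, with log2 differences of 0.43 in WT (95% interval 0.03 to 0.83), -0.05 in WNK2 trans (-0.43 to 0.34) and 0.17 in WNK2- (-0.18 to 0.52). With the other control label, WT Sor against WNK2 trans Ctr was at -0.06 (-0.45 to 0.32, adjusted p = 0.87). WNK2 trans Sor against WT Ctr was at 0.45 (SE 0.20, adjusted p = 0.0723).

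LRRC8B and LRRC8C lie beside LRRC8D on chromosome 1 (LRRC8B at chr1:89524836-89597864, LRRC8C at chr1:89633072-89769903, both plus strand). LRRC8B had 0, 0, 5 and 4 counts in WT Ctr, 11, 8, 9 and 8 in WT Sor and 5, 7, 0 and 3 in WNK2 trans Ctr. It had 5, 18, 9 and 19 counts in WNK2 trans Sor, 5, 14, 21 and 18 in WNK2- Ctr, and 42, 24, 22 and 19 in WNK2- Sor. The sorbitol group held more in each background, though only in WT did the libraries not overlap. Of its exon bases, 3% are shared with the antisense gene LRRC8C-DT, which held 2 to 44 counts per library, so these counts are uncertain. LRRC8B passed the filter on low counts only through groups where it was higher. No library labelled WT Ctr or WNK2 trans Ctr reached 10 counts, so its calls against those groups rest in part on that selection. LRRC8B was called higher in WNK2- Ctr against WT Ctr (log2 2.19, SE 0.67, adjusted p = 0.0103), in WNK2 trans Sor against WNK2 trans Ctr (1.69, SE 0.62, adjusted p = 0.0275) and in WNK2- Ctr against WNK2 trans Ctr (1.67, SE 0.62, adjusted p = 0.028). The second of these was lost without WNK2 trans Ctr replicate 3 (adjusted p = 0.0799) or 4 (0.0619) and without WNK2 trans Sor replicate 2 (0.0785) or 4 (0.0775). In that comparison LRRC8B was also not among the members called with only the groups compared or with 10 counts in every library. The third was lost without WNK2 trans Ctr replicate 3 (adjusted p = 0.083) or 4 (0.0631), without WNK2- Ctr replicate 3 (0.0886) or 4 (0.0645), and with libraries thinned to the smallest total (0.0867), as was the first with thinning (0.0503). WT Sor against WT Ctr missed the threshold (log2 1.81, adjusted p = 0.0618) but was called by DESeq2 (0.0321) and without WT Ctr replicate 3 (0.0379) or 4 (0.042) or WNK2 trans Ctr replicate 3 (0.0395). Against the libraries labelled WNK2 trans Ctr, WT Sor was at log2 1.28 without overlap and was not called (adjusted p = 0.197). WNK2- Sor against WT Sor (log2 1.17, adjusted p = 0.0701) was called by DESeq2 (0.0454), with only the groups compared (0.00286) and without WNK2 trans Ctr replicate 3 (0.0497). Some genes used by every cell, RPL15 and RPS4X among them, were also listed at 0 in all 24 libraries, as were 8 of 77 cytosolic ribosomal protein genes and 16 of 82 respiratory chain and ATP synthase genes. For this reason LRRC8C is given only as listed at 0, with no upper limit. RPL15 and RPS4X were named after their values were seen.

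Among the listed counts of the LRRC8 family, LRRC8A and LRRC8D made up nearly all counts per kilobase. LRRC8A held 66.5% ± 4.77 (SD, n = 4) of them in WT Ctr, 59.1% ± 1.7 in WT Sor, 63.3% ± 1.18 in WNK2 trans Ctr, 61.5% ± 3.09 in WNK2 trans Sor, 64.9% ± 0.532 in WNK2- Ctr and 66.1% ± 2 in WNK2- Sor. LRRC8D held 32.3% ± 4.82 in WT Ctr and 39.3% ± 1.85 in WT Sor, against 32% ± 0.399 and 30.5% ± 2.11 in the WNK2- groups. The LRRC8E share was 1.16% ± 0.161 in WT Ctr and 3.12% ± 0.217 in WNK2- Sor, the lowest and the highest group means. LRRC8B stayed under 1% throughout, at 0 to 0.458%. These are shares of the listed RNA counts and were not tested. They take LRRC8C as 0, and with its true level unknown the shares of the other subunits are upper values.

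**Figure D2:**
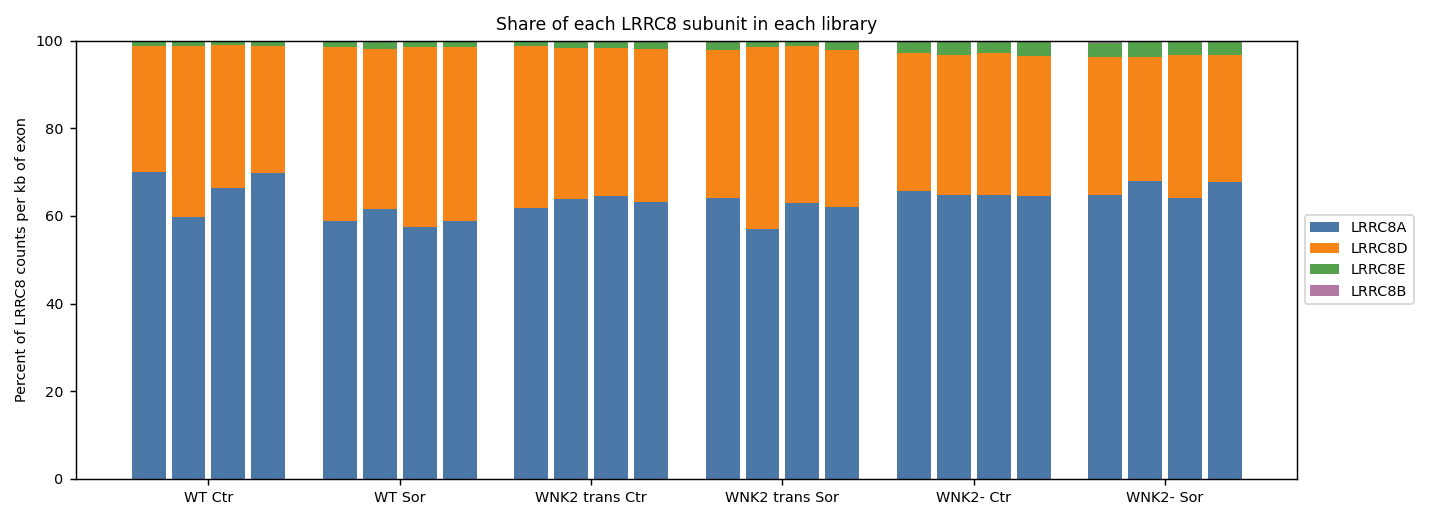
Stacked bars show, for each of the 24 libraries grouped by label, the percent of summed LRRC8 counts per kilobase of exon that each subunit holds (y axis 0 to 100); LRRC8C is listed at 0 and its true share is unknown. LRRC8A holds 57 to 70% and LRRC8D 28.3 to 41.5% in every library, and LRRC8E reaches 2.67 to 3.43% in the 8 WNK2- libraries.

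AQP1 (chr7:30911694-30925516, plus strand), the water pore, was read at 0 to 16 counts per library. Its group means were 0.22 to 0.56 CPM, all 6 groups overlapped and no pair of groups passed the test. The intervals were wide: in WT Sor against WT Ctr the log2 difference was 0.21, with a 95% interval of -1.13 to 1.56, and in WNK2- Ctr against WT Ctr it was 1.19 (-0.03 to 2.41). Without WT Ctr replicate 3 the latter comparison was called (log2 1.79, adjusted p = 0.042).

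TRPV4 (chr12:109783085-109833401, minus strand) was lower with sorbitol in WNK2 trans and in WNK2- cells, and not past the threshold in WT cells. In WT Ctr it was 16.3, 12.8, 13 and 15.1 CPM, and in WT Sor 14.5, 12.2, 12.5 and 11.4 CPM, so these groups overlapped. In WNK2 trans it was 16.4, 15.7, 15.2 and 18 CPM without and 8.52, 4.26, 6.85 and 5.35 CPM with sorbitol. In WNK2- it was 10.9, 11, 12.2 and 11.6 CPM without and 4.72, 6.49, 3.58 and 5.85 CPM with sorbitol. In both of these backgrounds every sorbitol library was below every control library. TRPV4 fell by 1.39 on the log2 scale in WNK2 trans Sor against WNK2 trans Ctr (SE 0.17, adjusted p = 3.61e-07) and by 1.14 in WNK2- Sor against WNK2- Ctr (SE 0.17, adjusted p = 3.46e-05). WNK2 trans Sor was also lower than the libraries labelled WT Ctr (log2 -1.20, SE 0.17, adjusted p = 6.66e-06). In WT Sor against WT Ctr the log2 difference was -0.17 (95% interval -0.52 to 0.17, adjusted p = 0.486). Every WT Sor library was below every library labelled WNK2 trans Ctr. That log2 difference was -0.37 (95% interval -0.71 to -0.03) and was not called (adjusted p = 0.146).

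With sorbitol TRPV4 was also lower than in WT Sor, by 1.29 on the log2 scale in WNK2- (SE 0.17, adjusted p = 1.03e-06) and by 1.03 in WNK2 trans (SE 0.17, adjusted p = 6.53e-05), without overlap. In isotonic medium WNK2- Ctr was 0.32 lower than WT Ctr with no overlap, but did not pass the test (log2 -0.32, adjusted p = 0.124). Against the libraries labelled WNK2 trans Ctr it did (log2 -0.52, SE 0.17, adjusted p = 0.0121). In order of group means, the 4 highest (WNK2 trans Ctr, WT Ctr, WT Sor, WNK2- Ctr) did not pass the test against the next, with adjusted p of 0.486 to 0.502. WNK2- Ctr was above WNK2 trans Sor (adjusted p = 0.000265), and WNK2 trans Sor against WNK2- Sor did not pass (adjusted p = 0.269).

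PIEZO2 (chr18:10666483-11148762, minus strand) had the widest range of the well-read members, with a log2 difference of 2.16 between the highest group (WNK2 trans Ctr) and the lowest (WNK2- Sor, adjusted p = 3.92e-12). It was 240, 272, 367 and 325 CPM in WT Ctr and 360, 387, 375 and 349 CPM in WT Sor, which overlapped. In WNK2 trans it was 470, 450, 297 and 389 CPM without and 190, 262, 260 and 264 CPM with sorbitol. In WNK2- it was 154, 200, 225 and 203 CPM without and 97.4, 86.4, 85.1 and 90.8 CPM with sorbitol. The 4 WNK2- Sor libraries were the lowest of all 24. PIEZO2 fell by 1.12 on the log2 scale with sorbitol in WNK2- (SE 0.14, adjusted p = 2.95e-06) and by 0.72 in WNK2 trans (SE 0.14, adjusted p = 0.000175). WNK2 trans Sor overlapped the libraries labelled WT Ctr, and against them it was not called (log2 -0.30, SE 0.14, adjusted p = 0.0913), so the call in WNK2 trans rests on the control libraries labelled WNK2 trans Ctr. In WT Sor against WT Ctr PIEZO2 was 0.29 higher on the log2 scale, with a 95% interval of 0.00 to 0.58 (adjusted p = 0.137). This comparison was called without WT Ctr replicate 3 (0.42, adjusted p = 0.0422). Against the libraries labelled WNK2 trans Ctr, the log2 difference of WT Sor was -0.13 (95% interval -0.41 to 0.16, adjusted p = 0.611).

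Between genotypes PIEZO2 fell by 0.62 on the log2 scale in WNK2- Ctr against WT Ctr (SE 0.14, adjusted p = 0.000905), by 1.04 against WNK2 trans Ctr (SE 0.14, adjusted p = 1.27e-06) and by 2.03 in WNK2- Sor against WT Sor (SE 0.15, adjusted p = 2.02e-11). The last was a 4.09-fold lower level, and no pair of these groups overlapped. In WNK2 trans Sor it fell by 0.59 against WT Sor (SE 0.14, adjusted p = 0.00227). In WNK2 trans Ctr against WT Ctr it was 0.42 higher on the log2 scale and just missed the threshold (adjusted p = 0.0513). That call was made by DESeq2 (adjusted p = 0.0349), with no filter (0.0312) and with 10 counts in every library (0.0409). It was also made without WT Ctr replicate 3 (0.0168), WNK2 trans Ctr replicate 3 (0.00815), WNK2 trans Sor replicate 1 (0.0328) or 2 (0.0493), or WNK2- Ctr replicate 1 (0.0401).

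PIEZO1 (chr16:88715338-88785220, minus strand) was higher in WNK2-, in the direction opposite to PIEZO2. It was 201, 117, 159 and 211 CPM in WT Ctr, 190, 202, 183 and 199 CPM in WT Sor, and 182, 185, 183 and 187 CPM in WNK2 trans Ctr. It was 216, 140, 189 and 186 CPM in WNK2 trans Sor, 274, 271, 253 and 280 CPM in WNK2- Ctr, and 247, 294, 216 and 260 CPM in WNK2- Sor. Each WNK2- Ctr library was above the WT Ctr and WNK2 trans Ctr libraries, and each WNK2- Sor library above the WT Sor libraries. PIEZO1 rose 0.65 ± 0.14 (SE, log2) in WNK2- Ctr against WT Ctr (adjusted p = 0.000429), 0.55 ± 0.14 against WNK2 trans Ctr (adjusted p = 0.00169) and 0.39 ± 0.14 in WNK2- Sor against WT Sor (adjusted p = 0.0192). The last call was lost without WT Sor replicate 3 (adjusted p = 0.0676) or WNK2- Sor replicate 2 (0.0789). With sorbitol PIEZO1 did not pass the threshold in WT (log2 0.17, 95% interval -0.11 to 0.45), WNK2 trans (-0.01, -0.29 to 0.27) or WNK2- (-0.08, -0.36 to 0.19).

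Per kilobase of exon, PIEZO2 was therefore the more abundant of the pair in WT Sor and WNK2 trans Ctr, and PIEZO1 in WNK2-. The ratio of PIEZO1 to PIEZO2 was 0.771 ± 0.258 (SD, n = 4) in WT Ctr, 0.69 ± 0.0438 in WT Sor and 0.621 ± 0.135 in WNK2 trans Ctr. It was 1.02 ± 0.335 in WNK2 trans Sor, 1.85 ± 0.357 in WNK2- Ctr and 3.71 ± 0.538 in WNK2- Sor. The WNK2- Sor libraries (3.32 to 4.46) were above the WNK2- Ctr libraries (1.47 to 2.33), and those lay above all libraries labelled WT Ctr and WT Sor (0.566 to 1.1). WNK2 trans Sor replicate 1, at 1.49, lay inside the WNK2- Ctr range. The ratio was not tested, and it takes the shared exon bases of PIEZO1 as they were counted.

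**Figure D3:**
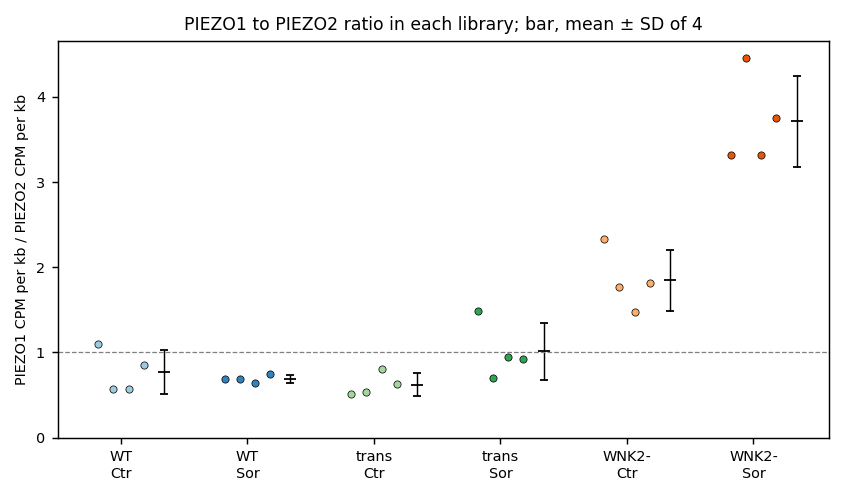
Each point is 1 library and the y axis is the linear ratio of PIEZO1 to PIEZO2 CPM per kilobase of exon, from 0; the bar is the mean ± SD of 4 and the dashed line marks equal levels. WT Sor sits at 0.639 to 0.746, WNK2- Ctr at 1.47 to 2.33 and WNK2- Sor at 3.32 to 4.46.

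The RefSeq promoter windows (GRCh38.p14) of both PIEZO genes and of LRRC8E are shown because these 3 members were called between WNK2- and WT in both media. Each runs from 250 bases before the transcript start, in lower case, to 50 bases from the start on, in capitals, 5′ to 3′ on the gene's strand. PIEZO2 lies at chr18:11149520-11149819 (minus), PIEZO1 at chr16:88785171-88785470 (minus) and LRRC8E at chr19:7888260-7888559 (plus).
PIEZO2: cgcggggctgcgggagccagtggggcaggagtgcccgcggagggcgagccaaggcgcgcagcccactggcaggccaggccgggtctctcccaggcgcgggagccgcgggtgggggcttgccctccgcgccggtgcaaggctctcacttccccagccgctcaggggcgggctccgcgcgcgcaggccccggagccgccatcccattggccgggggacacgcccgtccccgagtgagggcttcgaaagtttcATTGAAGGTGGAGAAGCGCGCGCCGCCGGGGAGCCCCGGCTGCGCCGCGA
PIEZO1: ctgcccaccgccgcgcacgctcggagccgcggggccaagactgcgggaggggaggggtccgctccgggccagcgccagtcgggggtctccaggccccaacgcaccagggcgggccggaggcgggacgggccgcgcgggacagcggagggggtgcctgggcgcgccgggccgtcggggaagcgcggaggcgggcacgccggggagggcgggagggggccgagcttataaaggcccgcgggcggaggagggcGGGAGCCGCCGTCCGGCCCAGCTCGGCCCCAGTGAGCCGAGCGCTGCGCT
LRRC8E: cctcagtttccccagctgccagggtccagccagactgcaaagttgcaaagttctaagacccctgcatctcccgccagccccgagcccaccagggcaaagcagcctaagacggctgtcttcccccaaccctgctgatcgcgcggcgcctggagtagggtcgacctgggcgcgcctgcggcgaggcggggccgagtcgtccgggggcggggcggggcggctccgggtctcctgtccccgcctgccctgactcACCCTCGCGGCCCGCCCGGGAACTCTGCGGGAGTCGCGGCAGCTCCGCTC
The windows are rich in G and C (76.7% in PIEZO2, 81% in PIEZO1 and 71.7% in LRRC8E, against a median of 58.7% over 35116 windows). They were searched on both strands for the tonicity element TonE, to which the osmotic stress factor NFAT5 binds, and for its first letters TGGAAA. Neither was found in these 3 windows or in the other 7 windows of the members. Of all windows, 4.92% hold TonE and 20.7% hold TGGAAA, so most windows lack them. The table of windows matched 8 of the 9 members, and TRPV4 had no entry.

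The first question of the design was what sorbitol changed in each background. In WT Sor against the libraries labelled WT Ctr, 1 of 8 tested members was called, LRRC8D. Against the libraries labelled WNK2 trans Ctr, where 15.1% of all genes were called, 0 of 8 members were called by edgeR or by DESeq2 (1 at an unadjusted p under 0.05 in edgeR), and in the fit of only these groups TRPV4 was (log2 -0.34, adjusted p = 0.0432). In WNK2 trans Sor against WNK2 trans Ctr, 3 of 8 were called (LRRC8B higher, TRPV4 and PIEZO2 lower), where 48% of all genes were. When WNK2 trans Sor was set against the libraries labelled WT Ctr, 2 of 8 were called (LRRC8B higher at log2 2.22, adjusted p = 0.0115, and TRPV4 lower), where 39.2% of all genes were. Of the 8, 2 were called in WNK2- Sor against WNK2- Ctr (TRPV4 and PIEZO2, both lower), where 14.9% of all genes were. The members' median log2 difference was 0.25, -0.08 and -0.04 in WT, WNK2 trans and WNK2-, against 0.04, 0.01 and 0.00 over all tested genes.

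The second question was the effect of losing WNK2. In WNK2- Ctr against WT Ctr, 4 of 8 members were called, with LRRC8B, LRRC8E and PIEZO1 higher and PIEZO2 lower, where 42.1% of all genes were called. Against the libraries labelled WNK2 trans Ctr, 5 of 8 were called, now with TRPV4 lower as well, where 47.7% of all genes were. In WNK2- Sor against WT Sor, 5 of 8 were called, LRRC8E and PIEZO1 higher and LRRC8D, TRPV4 and PIEZO2 lower, where 46.3% of all genes were. The members' median log2 difference was 0.31, 0.11 and 0.23 in these comparisons, against 0.00, 0.01 and 0.02 over all tested genes. With so many genes called throughout and 8 members, these counts are no result about the members as a group. The comparisons share libraries in part.

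The third question was the effect of WNK2 transfection. In WNK2 trans Ctr against WT Ctr, 0 of 8 members were called by edgeR and 1 by DESeq2 (PIEZO2), 3 had an unadjusted p under 0.05, and 12.5% of all genes were called. The WNK2 level in these 2 groups went against their labels, so no effect of transfection is drawn from that comparison. Of the 8, 2 were called in WNK2 trans Sor against WT Sor, TRPV4 and PIEZO2, both lower, where 31.7% of all genes were.

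**Figure D4:**
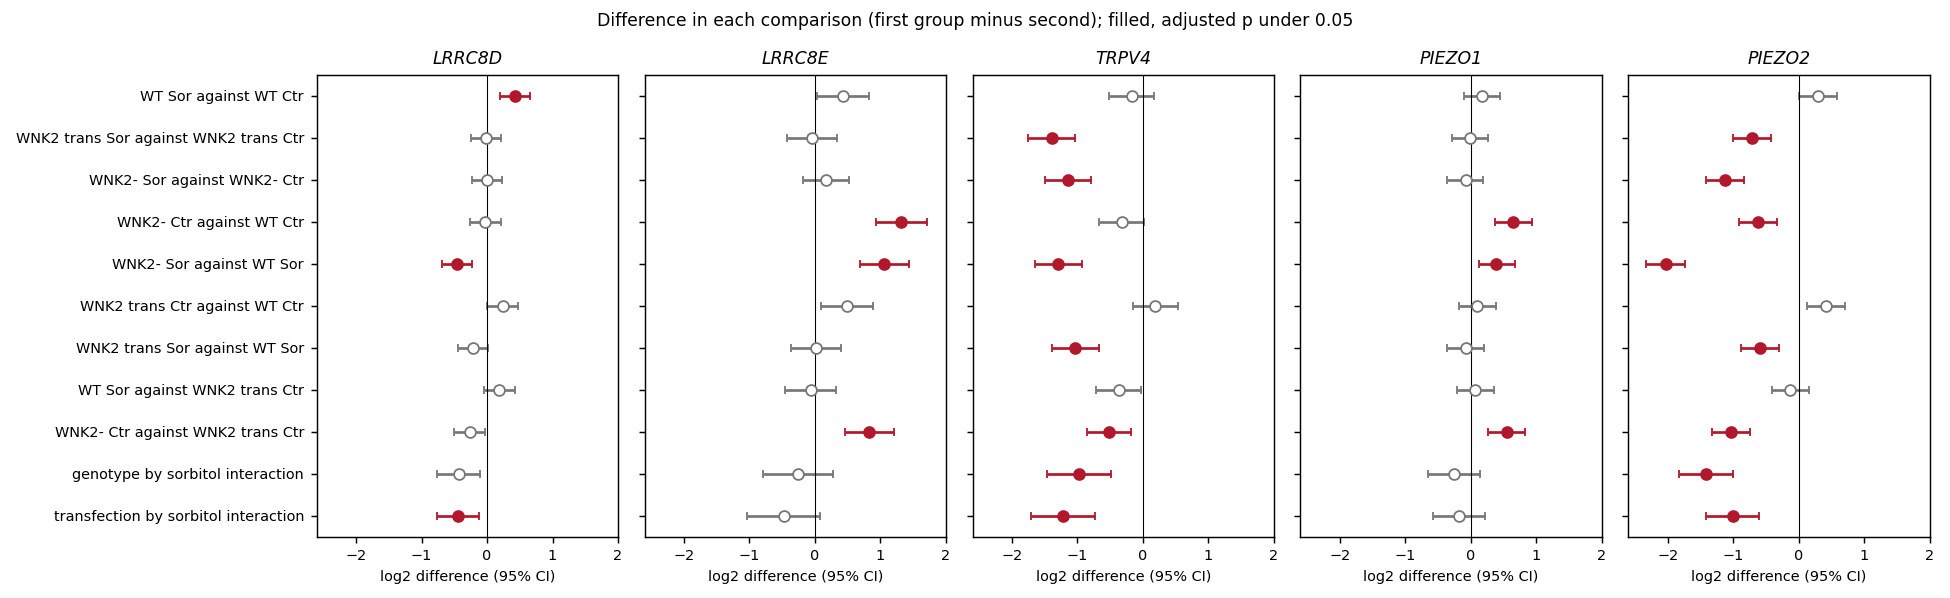
Each of 5 panels is 1 gene (LRRC8D, LRRC8E, TRPV4, PIEZO1, PIEZO2) and each row 1 of 11 comparisons; the x axis is the log2 difference (first group minus second, or the difference of sorbitol effects for the interactions) with its 95% interval, and filled points had an adjusted p under 0.05. PIEZO2 and TRPV4 lie left of 0 in every called comparison, LRRC8E and PIEZO1 right of 0, and PIEZO2 reaches -2.03 in WNK2- Sor against WT Sor.

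The fourth question was whether the sorbitol effect itself differed between backgrounds, tested as an interaction. For genotype, 2 of 8 members were called, where 8.65% of all genes were. The sorbitol effect in WNK2- minus that in WT was -1.41 ± 0.20 (SE, log2) for PIEZO2 (adjusted p = 4.25e-05) and -0.97 ± 0.24 for TRPV4 (adjusted p = 0.012). With the libraries labelled WNK2 trans Ctr in place of WT Ctr, an alternative chosen after seeing the data, TRPV4 missed the threshold (log2 -0.78, adjusted p = 0.0774) and 1 member, PIEZO2, was called (-0.99, adjusted p = 0.00337), where 3.39% of all genes were. LRRC8D was at -0.43 (SE 0.16, adjusted p = 0.0916), and it was called without WT Ctr replicate 2 (-0.59, adjusted p = 0.00713). For transfection, 3 of 8 were called, where 35.5% of all genes were. The difference of sorbitol effects was -1.22 ± 0.24 for TRPV4 (adjusted p = 0.000304), -1.01 ± 0.20 for PIEZO2 (adjusted p = 0.000313) and -0.45 ± 0.16 for LRRC8D (adjusted p = 0.0312). The LRRC8D call was lost without WT Ctr replicate 1 (adjusted p = 0.0692) or 4 (0.0544), without WT Sor replicate 1 (0.0537), with upper-quartile scaling (0.0529) and with only the groups compared (0.0739). Both interactions include the libraries labelled WT Ctr, and the transfection one those labelled WNK2 trans Ctr too. With these 2 control groups exchanged, also chosen after seeing the data, 1 of 8 members was called for transfection, where 5.46% of all genes were. That was TRPV4 (log2 -0.83, SE 0.24, adjusted p = 0.0399), while PIEZO2 was at -0.17 (SE 0.20, adjusted p = 0.702) and LRRC8D at 0.03 (SE 0.16, adjusted p = 0.953). The PIEZO2 and LRRC8D transfection calls were made with the control groups as labelled and not with them exchanged. For PIEZO1 the interaction was -0.25 (95% interval -0.65 to 0.14) with genotype and -0.18 (-0.57 to 0.22) with transfection, and for LRRC8A 0.10 (-0.11 to 0.31) and -0.12 (-0.33 to 0.09).

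Because WNK2- cells are clonal, the genes near each member were read in the genotype comparisons. Of all tested genes, 42.1% were called in WNK2- Ctr against WT Ctr and 46.3% in WNK2- Sor against WT Sor. In WNK2- Ctr against WNK2 trans Ctr 47.7% were. Nothing about a region is drawn from the counts of called neighbours. Around PIEZO2, 5 tested genes start within 1 Mb, and their median log2 difference was 0.23 in WNK2- Ctr against WT Ctr and 0.22 in WNK2- Sor against WT Sor, while PIEZO2 itself was at -0.62 and -2.03. Within 5 Mb of PIEZO2, 21 of 45 genes were higher and 4 lower in WNK2- Ctr, with a median of 0.39, against 0.00 over all tested genes. Around PIEZO1, 36 genes had a median of 0.30 in WNK2- Ctr, 14 of them higher and 1 lower, with PIEZO1 at 0.65. With sorbitol the same window had a median of 0.04, 6 higher and 6 lower, with PIEZO1 at 0.39. Against the libraries labelled WNK2 trans Ctr it had a median of 0.11, 8 higher and 4 lower, with PIEZO1 at 0.55. Around AQP1, 13 genes had a median of 0.31 in WNK2- Ctr against WT Ctr, 5 higher and 0 lower, with AQP1 at 1.19 and not called. Around TRPV4, 30 genes had a median of -0.02 in WNK2- Ctr and 0.06 with sorbitol, where TRPV4 was at -1.29. Around LRRC8E, 33 genes had a median of -0.00 and -0.33, where LRRC8E was at 1.32 and 1.06. The 12 genes near LRRC8B had a median of -0.22 in WNK2- Ctr against WT Ctr and 0.06 with sorbitol, where LRRC8B was at 2.19 and 1.17. For LRRC8D, 10 genes had a median of -0.39 and -0.02, where LRRC8D was at -0.03 and -0.46. Many of these medians moved with the window. Within 5 Mb they were -0.00 and -0.07 around LRRC8E, -0.03 and 0.18 around LRRC8B, and -0.02 and 0.18 around LRRC8D. Around TRPV4 they were 0.07 and 0.17, around PIEZO1 0.26 and 0.07, and around AQP1 0.07 and 0.02. The part of copy number in the WNK2- values was not tested.

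**Figure D5:**
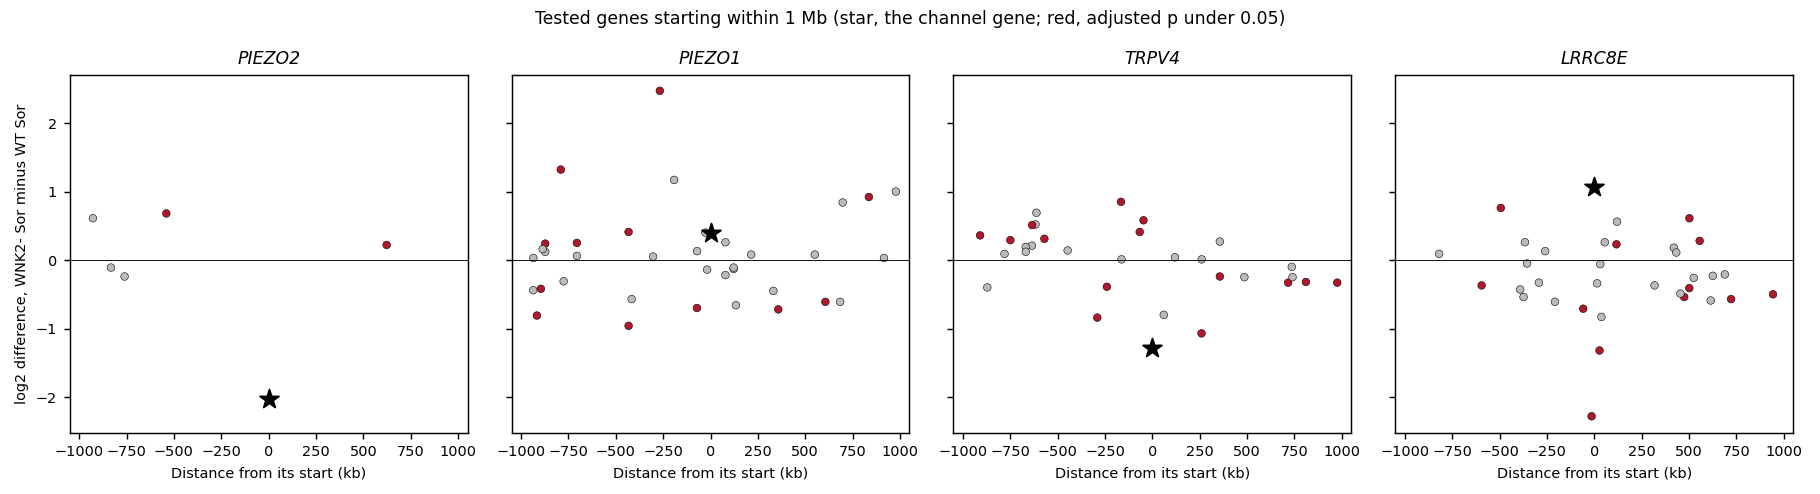
Each panel plots the tested genes that start within 1 Mb of a member; the x axis is the distance from its start in kb (positive along the gene's strand), the y axis the log2 difference of WNK2- Sor minus WT Sor, red points had an adjusted p under 0.05 and the star is the member. PIEZO2 lies at -2.03 among 5 neighbours with a median of 0.22, and LRRC8E at 1.06 among 33 with a median of -0.33. Within 5 Mb the medians were 0.26 and -0.07.

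Other channels were read by list, with the counts over all 16600 tested genes as the background. In WT Sor against WT Ctr 24.1% of all genes were called (1893 higher, 2115 lower), in WNK2 trans Sor against WNK2 trans Ctr 48% (4034 and 3938) and in WNK2- Sor against WNK2- Ctr 14.9% (1370 and 1103). For WNK2- Ctr against WT Ctr 42.1% were called (3435 and 3561), in WNK2- Sor against WT Sor 46.3% (3928 and 3762), in WNK2 trans Ctr against WT Ctr 12.5% (924 and 1158) and in WNK2 trans Sor against WT Sor 31.7% (2675 and 2579). The lists are short, and nothing particular to a list is drawn from its counts. Of 25 other chloride and anion channel genes, 22 were tested. In WT Sor against WT Ctr 3 were higher and 3 lower (median log2 0.06), among them TTYH1, a tweety family member, higher at 1.60 (SE 0.25, adjusted p = 6.18e-05), and CLNS1A, once proposed as a swelling-activated channel component, lower at -0.64 (SE 0.13, adjusted p = 0.000743). In WNK2- Sor against WT Sor 5 were higher and 8 lower (median -0.04), with the chloride-proton exchanger CLCN4 higher at 0.66 (SE 0.10, adjusted p = 3.71e-06). In WNK2 trans Sor against WNK2 trans Ctr 6 were higher and 8 lower (median -0.07), and BEST1, a calcium-activated chloride channel, was lower at -2.35 (SE 0.31, adjusted p = 1.12e-06). In WNK2- Sor against WNK2- Ctr 2 were higher and 1 lower (median 0.03), the last being SLCO2A1, the core of the maxi-anion channel, at -1.42 (SE 0.17, adjusted p = 1.41e-06). In WNK2- Ctr against WT Ctr 4 were higher and 3 lower, in WNK2 trans Ctr against WT Ctr 1 and 2, and in WNK2 trans Sor against WT Sor 4 and 4. Of 13 other aquaporins, 4 were listed at 0 in all libraries and 2 were tested. AQP3, which also passes glycerol, was lower in WNK2 trans Sor against WNK2 trans Ctr (log2 -1.84, SE 0.30, adjusted p = 1.8e-05), in WNK2- Ctr against WT Ctr (-1.34, SE 0.31, adjusted p = 0.000939), in WNK2- Sor against WT Sor (-0.72, SE 0.28, adjusted p = 0.039) and in WNK2 trans Sor against WT Sor (-1.39, SE 0.30, adjusted p = 0.00105).

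Of 26 other TRP channel genes, 14 were tested. Where TRPV4 fell, other members did not move as one: in WNK2 trans Sor against WNK2 trans Ctr 8 were higher and 3 lower (median log2 0.41, with 48% of all genes called), and in WNK2- Sor against WNK2- Ctr 3 were higher and 2 lower (median 0.26, with 14.9% of all genes called). The receptor-operated channel TRPC4 was at -1.13 (SE 0.13, adjusted p = 9.48e-08) in the former. Its mean was 37 CPM in WNK2 trans Sor, 81.1 CPM in WNK2 trans Ctr and 49.4 CPM in WT Ctr. TRPV2, of the same vanilloid subfamily as TRPV4, was higher with sorbitol in WT (log2 1.78, SE 0.27, adjusted p = 4.67e-05) and in WNK2- (0.96, SE 0.25, adjusted p = 0.00955). WT Sor against WT Ctr had 5 higher and 0 lower (median 0.36), where 24.1% of all genes were called. WNK2- Sor against WT Sor, where 46.3% of all genes were called, had 2 higher and 4 lower (median 0.14), with TRPC4 at -1.68 (SE 0.13, adjusted p = 1.08e-10) and TRPM3, a channel opened by steroids and heat, at -1.62 (SE 0.14, adjusted p = 8.37e-10). In WNK2- Ctr against WT Ctr 2 were higher and 2 lower, in WNK2 trans Ctr against WT Ctr 2 and 0, and in WNK2 trans Sor against WT Sor 3 and 3.

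Of 22 other mechanosensitive genes and partners, 17 were tested. One listed name, TMEM16F, is an older symbol of ANO6, which is in the chloride list. In WNK2- Sor against WT Sor 0 were higher and 5 lower (median log2 -0.38), and in WNK2 trans Sor against WT Sor 1 was higher and 5 lower (median -0.36), where 46.3% and 31.7% of all genes were called. GJA1, the gap junction protein connexin 43 of chondrocytes, was at -3.00 (SE 0.10, adjusted p = 9.46e-18) and -1.50 (SE 0.09, adjusted p = 1.11e-11) in these comparisons. TMEM63A, a member of the osmosensitive OSCA and TMEM63 channel family, was at -0.71 (SE 0.09, adjusted p = 2.83e-07) and -0.38 (SE 0.09, adjusted p = 0.00164). With sorbitol in WT, where 24.1% of all genes were called, 3 were higher and 0 lower (median 0.26). These were GJA1 at 0.54 (SE 0.09, adjusted p = 0.000163), the membrane protein STOM at 0.48 (SE 0.10, adjusted p = 0.00134) and TMEM63A at 0.28 (SE 0.09, adjusted p = 0.0212). WT Sor against the libraries labelled WNK2 trans Ctr, where 15.1% of all genes were called, had 0 higher and 1 lower (median 0.02). That was GJA1 at -0.42 (SE 0.09, adjusted p = 0.00242), so its direction depended on the control label. WNK2 trans Sor against WNK2 trans Ctr, where 48% of all genes were called, had 3 higher and 6 lower (median -0.13), with MDFI, a member of a family of PIEZO auxiliary proteins, at -1.80 (SE 0.30, adjusted p = 3.01e-05). In WNK2- Ctr against WT Ctr 3 were higher and 4 lower, in WNK2- Sor against WNK2- Ctr 2 and 0, and in WNK2 trans Ctr against WT Ctr 3 and 0. All lists were chosen with earlier results of these data known.

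The genes whose pattern over the 24 libraries was most like that of each member were found by Pearson's r of log2 CPM among 9642 genes. For PIEZO2, DENND5B was among them (r = 0.97). For TRPV4 they were COLGALT1 (0.97) and GALNT16 (0.96), and for PIEZO1 REXO1 (0.98) and CEP170B (0.97). For LRRC8E they were SPOCD1 (0.93) and LPCAT1 (0.92), for LRRC8D DPYSL2 (0.85) and ARSK (0.79), and for LRRC8B CHD9 (0.96) and CLOCK (0.95). LRRC8A, with no pair of groups called, reached 0.71 with PI4KB and 0.66 with DCTN5, and AQP1 0.70 with NHEJ1 and 0.67 with VPS37C. Among the members, r ran from -0.78 (LRRC8E and PIEZO2) to 0.81 (LRRC8E and PIEZO1), with 0.72 for TRPV4 and PIEZO2. The points are 6 groups of 4 libraries and share each library's depth and scaling, LRRC8B and AQP1 rest on few counts, and these values describe the libraries and carry no p.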

How the data were processed

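RNA-seq was performed on 24 poly(A) libraries of T/C-28a2 cells, 4 biological replicates in each of 6 groups taken from the labels. The authors deposited raw read counts per Ensembl gene, 1 file per library. The submitters' processing notes list FastQC 0.11.9, HISAT2 2.2.1, HTSeq 2.0.2, DESeq2 1.38.3 and GRCh38; the annotation release and the strand and overlap settings are not given in the sources used here. Library totals were 14153002 to 25664619 counts.

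Low genes were removed with filterByExpr at a minimum count of 10 and a total of at least 15. Library totals were adjusted by TMM, and the edgeR 4.0.16 quasi-likelihood test (R 4.3.3) was fitted with one mean per group over all 24 libraries, which share one estimate of the spread. P-values were adjusted by Benjamini-Hochberg over all 16600 tested genes within each of 11 comparisons, and called at 0.05. SE is the log2 difference divided by the square root of F, and intervals are 95%. Levels per kilobase used the union of GENCODE 29 exons. Motif windows came from RefSeq, GRCh38.p14. Alternatives were DESeq2 1.42.0, other scalings and filters, a replicate block, only the groups compared, thinned counts and leaving out each library. The members, the channel and marker lists and the rule for named genes (up to 3 per list and comparison, by smallest p among called genes without overlap, of which some are given) were chosen with earlier results of these data known. Same-numbered libraries were not paired. One result of the search for genes of like pattern is not reported here.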

Additional observations from a re-analysis of the deposited data

Results flagged for a closer look

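Among 48 gene and group combinations of 4 libraries, 2 held a library far from the other 3, where chance sets apart about 1 in 20 such groups. LRRC8E was 2.1 CPM in WNK2 trans Ctr replicate 1, against 3.03 to 3.13 CPM in the others. PIEZO2 was 190 CPM in WNK2 trans Sor replicate 1, against 260 to 264 CPM in the others.

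The effect of sorbitol differed between backgrounds in 5 interaction tests (edgeR, Benjamini-Hochberg adjusted). In WNK2- against WT the log2 difference of sorbitol effects was -1.41 for PIEZO2 (adjusted p = 4.25e-05) and -0.97 for TRPV4 (adjusted p = 0.012). In WNK2 trans against WT it was -1.22 for TRPV4 (adjusted p = 0.000304), -1.01 for PIEZO2 (adjusted p = 0.000313) and -0.45 for LRRC8D (adjusted p = 0.0312). In both backgrounds with the fall of TRPV4 and PIEZO2, every sorbitol library lay below every control library labelled with its background, but for PIEZO2 WNK2 trans Sor overlapped the libraries labelled WT Ctr. The libraries labelled WT Ctr enter all 5 tests. With the libraries labelled WNK2 trans Ctr in their place, the genotype value was -0.99 for PIEZO2 (adjusted p = 0.00337) and -0.78 for TRPV4 (adjusted p = 0.0774). With these 2 control groups exchanged, the transfection value was -0.83 for TRPV4 (adjusted p = 0.0399), -0.17 for PIEZO2 (adjusted p = 0.702) and 0.03 for LRRC8D (adjusted p = 0.953), so only TRPV4 was called. Both alternatives were chosen after seeing the data.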

How the results depend on the processing

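Of 91 recomputed counts of genes called, 87 stayed within 1.5 times the reported count, and of 91 counts of members called, 83 did. Of 678 recomputed log2 differences of members, 630 kept their direction and side of the threshold, 8 lost a call, 10 gained one and 30 changed sign, none of them called after the change. Of 18 medians of neighbouring genes, 7 stayed the same and 11 moved with a 5 Mb window in place of 1 Mb. Fits that leave out a library are not in these counts. The cause of these shifts was not tested.

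For WT Sor against WT Ctr, DESeq2 called 2 members and the fit of only the groups compared 0; LRRC8A was 0.03 with upper-quartile scaling, 0.02 with no filter, 0.04 with 10 counts in every library and 0.01 with only the groups compared. In WNK2 trans Ctr against WT Ctr, 1 member was called by DESeq2, with no filter and with 10 counts in every library, and only the groups compared gave 747 genes in place of 2082. With only the groups compared, WNK2- Sor against WNK2- Ctr gave 4824 genes in place of 2473, and WT Sor against WNK2 trans Ctr 1 member. For WNK2 trans Sor against WNK2 trans Ctr, PIEZO1 was 0.00 by DESeq2 and RLE scaling, 0.06 with upper-quartile scaling and 0.03 with 10 counts in every library, LRRC8D 0.05 and 0.02 in the last 2, and LRRC8E 0.02 with upper-quartile scaling. For WNK2- Sor against WNK2- Ctr, LRRC8D was 0.00 by DESeq2, 0.01 with RLE scaling and thinning, 0.04 with upper-quartile scaling and 0.03 with 10 counts in every library. In WNK2- Ctr against WT Ctr, LRRC8A and LRRC8D were 0.00 with 10 counts in every library, and LRRC8E was -0.00 in WNK2 trans Sor against WT Sor with no filter. With the libraries labelled WNK2 trans Ctr in place of WT Ctr, chosen after seeing the data, the genotype interaction called 562 genes and 1 member, LRRC8E was 0.23 and AQP1 0.22. With those 2 control groups exchanged, also chosen then, the transfection interaction called 906 genes in place of 5897 and 1 member, LRRC8A was 0.01, LRRC8B 0.94, LRRC8D 0.03, LRRC8E 0.51, AQP1 0.56 and PIEZO1 0.02, and PIEZO2 lost its call (-0.17). With WT Ctr in place of WNK2 trans Ctr, WNK2 trans Sor gave LRRC8D 0.22, LRRC8E 0.45 and PIEZO1 0.09, and PIEZO2 lost its call (-0.30).

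Leaving out each library in turn gave these ranges. For WT Sor against WT Ctr, the range was members called 1 to 3 (3 without WT Ctr replicate 3), LRRC8A -0.02 to 0.03, AQP1 -0.19 to 0.82. For WNK2 trans Sor against WNK2 trans Ctr, the range was LRRC8D -0.07 to 0.02, LRRC8E -0.22 to 0.08, PIEZO1 -0.12 to 0.10. For WNK2- Sor against WNK2- Ctr, the range was LRRC8D -0.06 to 0.03. In WNK2- Ctr against WT Ctr, the range was LRRC8D -0.11 to 0.12. In WNK2 trans Ctr against WT Ctr, the range was members called 0 to 1, PIEZO1 -0.04 to 0.22. For WNK2 trans Sor against WT Sor, the range was LRRC8E -0.16 to 0.14, PIEZO1 -0.19 to 0.02. In the genotype by sorbitol interaction, the range was genes called 849 to 1908, with 849 without WNK2- Sor replicate 3 and 944 without WNK2- Ctr replicate 2. In the transfection by sorbitol interaction, the range was LRRC8B -0.79 to 0.29.

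With the replicate block, the counts of genes called were 3894 (WT Sor against WT Ctr), 7890 (WNK2 trans Sor against WNK2 trans Ctr), 2350 (WNK2- Sor against WNK2- Ctr), 6859 (WNK2- Ctr against WT Ctr), 7568 (WNK2- Sor against WT Sor), 1323 (genotype interaction) and 5789 (transfection interaction), all within 1.5 times the counts without it. The block added LRRC8D in WNK2- Ctr against WNK2 trans Ctr (log2 -0.26, adjusted p = 0.0491), for 6 members, and changed no other call of a member. Over 60 same-numbered pairs of libraries the correlation of deviations was -0.29 to 0.46, over 0.1 in 10, so the numbers were not taken as pairs. AQP1 and LRRC8B rest on 0 to 16 and 0 to 42 counts per library.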
